A study of Mus musculus with 24 samples.

Results

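The IFITM genes encode small interferon-induced transmembrane proteins, and 4 of them, Ifitm1, Ifitm2, Ifitm3 and Ifitm6, were followed here through 6 treatment groups of mouse neutrophils. They were chosen by name, and all 4 were found among the 48709 genes of each file. The cells came from the bone marrow of C57Bl/6J mice, were enriched by centrifugation in Percoll and were then cultured for 4 hours. They were left untreated, or received LPS and IFNγ together (LPS at 10 ng/mL and IFNγ at 2 ng/mL, the N1 stimulus), IL4 at 20 ng/mL (the N2 stimulus), IGF1 at 10 ng/mL, insulin at 10 ng/mL (Ins10) or insulin at 100 ng/mL (Ins100). Each group had 4 libraries of messenger RNA, 24 in all, and the study names 4 mice per group. A Percoll gradient enriches neutrophils without sorting them, so other bone marrow cells remained in the cultures.

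IFITM proteins sit in the plasma membrane and in endosomes and lysosomes, where they hinder the fusion of enveloped viruses with the membranes of the cell. Interferons induce several of them through the JAK kinases and the STAT factors, which bind 2 kinds of short DNA elements. The gamma-activated site (GAS) serves the response to IFNγ, and the interferon-stimulated response element (ISRE) serves mainly the response to type I interferon. In human cells IFITM1 is found mostly at the cell surface, and IFITM2 and IFITM3 mostly in endosomes. Mice lacking Ifitm3 are more susceptible to influenza virus. Ifitm6 is a family member described in the mouse.

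The 4 genes lie within 63.1 kb of chromosome 7 (GRCm38, GENCODE M21). Ifitm2 (ENSMUSG00000060591.9) spans chr7:140954837-140955987 and Ifitm1 (ENSMUSG00000025491.14) spans chr7:140967221-140969825. Ifitm3 (ENSMUSG00000025492.6) spans chr7:141009586-141010770 and Ifitm6 (ENSMUSG00000059108.4) spans chr7:141015699-141017924. Ifitm1 is on the plus strand, and the other 3 are on the minus strand. RefSeq (GRCm38.p6) gives 1 start for each of the 4 genes. The window from 250 bases before to 50 bases after that start was searched on both strands for the ISRE core GAAANNGAAA, for the GAS TTCNNNGAA and for the STAT6 site TTCNNNNGAA, the element that IL4 signalling uses. The ISRE core occurred in 3.44% of the 32851 RefSeq windows of that length, the GAS in 8.30% and the STAT6 site in 6.95%.

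The part of each window before its first base in a GENCODE exon is shown 5′ to 3′ on the strand of the gene, because only the Ifitm2 stretch holds one of these elements. Capitals mark the ISRE core.
Ifitm1, chr7:140967826-140968027, plus strand: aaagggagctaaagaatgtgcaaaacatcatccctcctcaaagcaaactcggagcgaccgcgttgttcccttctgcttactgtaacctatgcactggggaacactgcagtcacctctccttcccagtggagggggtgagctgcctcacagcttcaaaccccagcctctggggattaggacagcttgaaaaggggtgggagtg
Ifitm2, chr7:140955988-140956211, minus strand: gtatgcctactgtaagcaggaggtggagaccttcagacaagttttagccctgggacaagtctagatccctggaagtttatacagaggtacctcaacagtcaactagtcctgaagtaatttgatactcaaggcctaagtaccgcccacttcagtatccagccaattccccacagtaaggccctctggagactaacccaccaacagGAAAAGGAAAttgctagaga
Ifitm3, chr7:141010771-141010994, minus strand: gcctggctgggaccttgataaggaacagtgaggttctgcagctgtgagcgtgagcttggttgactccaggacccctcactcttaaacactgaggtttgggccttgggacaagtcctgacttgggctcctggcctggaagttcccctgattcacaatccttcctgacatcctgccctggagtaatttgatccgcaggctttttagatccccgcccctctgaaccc
Ifitm6, chr7:141016909-141017142, minus strand: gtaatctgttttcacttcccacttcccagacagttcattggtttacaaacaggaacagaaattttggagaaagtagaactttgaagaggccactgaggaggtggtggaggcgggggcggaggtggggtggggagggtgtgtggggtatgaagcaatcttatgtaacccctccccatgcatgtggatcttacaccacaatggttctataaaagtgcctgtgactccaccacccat

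The matches of Ifitm3 and Ifitm6 overlapped annotated GENCODE exons, and 30 bases around them are shown with the matched bases in capitals.
Ifitm3, chr7:141010714-141010743, minus strand: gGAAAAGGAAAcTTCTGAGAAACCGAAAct
Ifitm6, chr7:141016883-141016912, minus strand: ccatatgaacTTCCTTGAAacaagagcttc
Ifitm3 held 2 ISRE cores, GAAAAGGAAA and GAAACCGAAA, with 1 GAS, TTCTGAGAA, between them that overlaps the second core. Ifitm2 held 1 ISRE core, GAAAAGGAAA, at 46 bases before the start, with the same 10 letters as the first core of Ifitm3. Ifitm6 held 1 GAS, TTCCTTGAA, and no ISRE core. This GAS began at -10 from the RefSeq start, so it lay before that start. The Ifitm1 window held none of the 3 elements, and GENCODE also gives Ifitm1 and Ifitm6 transcripts that start upstream of their windows. None of the 4 windows held the STAT6 site.

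The values are RPKM, the reads of a gene divided by transcript length and by how many reads the library had mapped, so levels of different genes can be set side by side per length. Libraries held 18748634 to 30925209 mapped reads. Each of the 4 genes had between 741 reads (Ifitm1) and 25304 reads (Ifitm3) in a library, which puts the counting error of a single value between 0.63% and 3.67%. Every library carries the number 6, 9, 10 or 11, with each number once in every group, and the 6 libraries that share a number are referred to as a preparation. No source read here says whether a number stands for 1 mouse. As library names with the same number also follow one another, effects of the cells and of library handling cannot be told apart. Neutrophil genes led in all libraries: the 9 markers of mature neutrophils summed to between 72630 and 104200 RPKM. The 6 eosinophil markers summed to 1529 to 2590 RPKM, the 8 erythroid markers to 589.7 to 6125 RPKM, the 9 B lineage markers to 91.5 to 279.1 RPKM and the 10 monocyte and macrophage markers to 208.7 to 356.4 RPKM. In bulk RNA, fewer cells of a type and less RNA per cell cannot be told apart.

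Untreated neutrophils expressed all 4 genes at high levels, in the order Ifitm6, Ifitm2, Ifitm3 and Ifitm1. Ifitm6 stood at 484, 416, 357 and 445 RPKM in preparations 6, 9, 10 and 11, a mean of 425 ± 53.4 (SD, n = 4). It ranked between 53 and 83 among all genes of a library. Ifitm2 stood at 199, 188, 239 and 182 RPKM (202 ± 25.7), and Ifitm3 at 250, 164, 154 and 165 RPKM (183 ± 45.01). These 2 genes overlapped and their order was not the same in every preparation. Ifitm1 was the lowest, at 47.8, 39.6, 44.98 and 36.9 RPKM (42.3 ± 4.98), with ranks between 860 and 1109. The 4 genes summed to 853 ± 86.6 RPKM, and Ifitm6 made up 49.9% ± 3.76 of the sum.

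**Figure D1:**
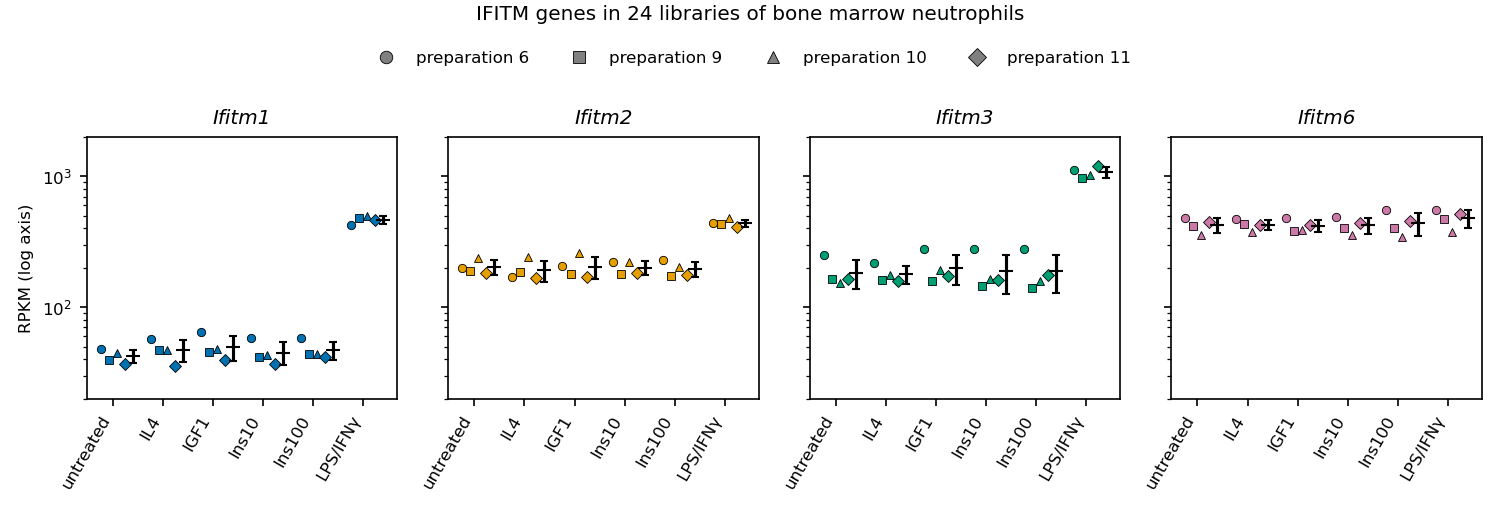
RPKM (log axis) of the 4 IFITM genes in the 6 groups, 1 point per library with the symbol giving the preparation, and the mean ± SD of the 4 libraries beside them. Ifitm1, Ifitm2 and Ifitm3 are above all other libraries with LPS/IFNγ, while Ifitm6 overlaps, and preparation 6 is the highest for Ifitm3 in every group without LPS/IFNγ.

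LPS/IFNγ raised 3 of the 4 genes, and Ifitm6 was not called. Ifitm1 reached 424, 477, 496 and 464 RPKM in preparations 6, 9, 10 and 11 (465 ± 30.7). Every stimulated library was above every untreated one, 11.01-fold on average (log2 change 3.46, SE 0.09, 95% interval 3.26 to 3.66, limma adjusted p = 3.26e-09). Ifitm3 rose to 1115, 971, 1028 and 1207 RPKM (1080 ± 103), which made it the highest of the family and placed it between ranks 25 and 29 of all genes. Its groups did not overlap either, and the change was 5.99-fold (log2 2.58, SE 0.15, interval 2.25 to 2.92, adjusted p = 1.18e-06). Ifitm2 rose to 438, 430, 478 and 411 RPKM (439 ± 28.4), again with no overlap. Its change was 2.19-fold (log2 1.13, SE 0.09, interval 0.93 to 1.33, adjusted p = 6.5e-06). Ifitm6 stood at 551, 469, 375 and 518 RPKM (478 ± 76.6). The groups overlapped, with 2 of the 4 stimulated libraries above every untreated one. Its log2 change was 0.16 (SE 0.13, interval -0.13 to 0.46, adjusted p = 0.34), and the upper bound of the interval is a 1.37-fold rise.

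Over all genes, 25.9% of the 13062 tested were called in this comparison at an adjusted p under 0.05 and at least 1.5-fold, and 8.15% were called as higher. These were 1065 higher and 2322 lower genes, and 1527 and 1243 after the median-of-ratios scaling, where the median log2 change of all genes tested was 0.00. Of the 4 IFITM genes, 3 were called, all higher. Ordered by log2 change from the top, Ifitm1 was number 117 of the 13062 genes, Ifitm3 number 191, Ifitm2 number 652 and Ifitm6 number 2640. Against IL4, where 27.2% of 13082 genes were called and 7.66% were called as higher, the same 3 genes were higher with LPS/IFNγ (1002 genes higher and 2553 lower in all, 1451 and 1186 after scaling). Their log2 differences were 3.33 (SE 0.13) for Ifitm1, 2.60 (SE 0.12) for Ifitm3 and 1.21 (SE 0.12) for Ifitm2, with limma adjusted p of 1.1e-07, 2.73e-07 and 4.23e-05. For Ifitm6 the difference was 0.16 (interval -0.13 to 0.44).

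The size of the change varied between preparations for some genes more than for others. Within preparations 6, 9, 10 and 11, Ifitm1 was higher with LPS/IFNγ by 3.15, 3.59, 3.46 and 3.65 on the log2 scale, and Ifitm3 by 2.15, 2.56, 2.74 and 2.87. Ifitm2 changed by nearly the same amount in each, 1.14, 1.20, 1.00 and 1.18. Ifitm6 was higher in 4 of 4 preparations, by 0.19, 0.17, 0.07 and 0.22. With preparation as a block in the limma fit the SE of Ifitm6 fell from 0.13 to 0.04 and its adjusted p was 0.00909, still below the 1.5-fold threshold (interval 0.07 to 0.26). The median of all genes tested was -0.22 in this comparison. After median-of-ratios scaling the log2 change of Ifitm6 was 0.41 (adjusted p = 0.0365), also below 1.5-fold, and the other 3 were still called.

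Markers of some other cells moved with LPS/IFNγ as well. The 8 basophil and mast cell markers summed to 64.27 to 99.11 RPKM in untreated libraries and to 255.6 to 334.3 RPKM with LPS/IFNγ, none of them at 0. Hdc, the histidine decarboxylase gene, made up most of this, with means of 60.1 and 280.5 RPKM, while the mast cell protease gene Mcpt8 stood at 4.50 and 5.45 RPKM. The 6 dendritic cell markers summed to 2.262 to 3.462 and to 16.67 to 21.18 RPKM, where Bst2, which is itself induced by interferon, made up most and Flt3 stood at 0.368 and 0.131 RPKM. The 10 monocyte and macrophage markers summed to 221.6 to 287.5 and to 249.1 to 356.4 RPKM, with Csf1r at 29.5 and 9.22 RPKM and Ly6c2 at 199.8 and 257.3 RPKM. The part of such cells in the rise of the IFITM genes was not tested.

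**Figure D2:**
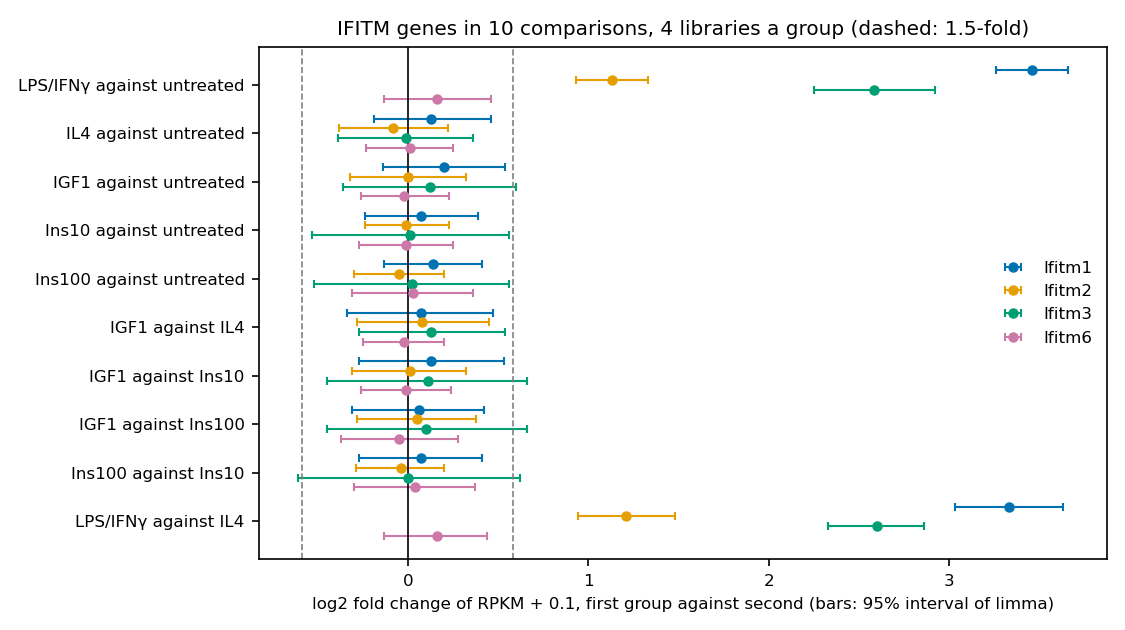
Log2 fold changes of the 4 IFITM genes in 10 comparisons of 4 libraries against 4, with 95% intervals from limma without the preparation block and dashed lines at 1.5-fold. Only Ifitm1, Ifitm2 and Ifitm3 in the 2 comparisons of LPS/IFNγ pass 1.5-fold, and the intervals of the other comparisons include 0.

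The family members did not rise in proportion, which the ratio of 2 genes within a library shows without any scaling between libraries. Untreated cells had a log2 ratio of Ifitm1 over Ifitm2 of -2.25 ± 0.146 (SD, n = 4), and LPS/IFNγ brought it to 0.08 ± 0.102, a shift of 2.33. Ifitm1 thereby rose 5.04-fold more than Ifitm2 and 1.84-fold more than Ifitm3. Ifitm3 rose 2.74-fold more than Ifitm2, and Ifitm2 rose 1.95-fold more than Ifitm6. All 6 ratios among the 4 genes shifted with no overlap of the groups. Each had an exact two-sided permutation p of 0.0286, the smallest that 70 arrangements of 4 against 4 libraries allow, and 0.0286 after adjustment over the 6 pairs. The 6 ratios are drawn from the same 4 genes and are not separate results. How many ratios of other genes shift in this way was not computed. Of the 13062 genes tested in this comparison, 7179 had an unadjusted limma p under 0.05. With IL4 none of the 6 ratios passed (shifts between -0.09 and 0.22, exact adjusted p between 0.891 and 0.914), and the same was true for IGF1 (shifts between -0.12 and 0.22, exact adjusted p between 0.79 and 0.83). The permutations did not pair libraries by preparation, so small shifts within preparations were not tested.

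The make-up of the family signal changed accordingly. The sum of the 4 genes went from 853 ± 86.6 to 2463 ± 120 RPKM (n = 4 each). Ifitm6 held 49.9% ± 3.76 of it in untreated cells and 19.4% ± 2.55 with LPS/IFNγ. Ifitm3 went the other way, from 21.3% ± 2.86 to 43.8% ± 2.10. Ifitm1 went from 4.97% ± 0.505 to 18.9% ± 1.97, and Ifitm2 from 23.9% ± 4.29 to 17.9% ± 1.81. In the 4 other treatment groups the shares stayed near those of untreated cells, with Ifitm6 between 48.3% and 50.5% on average.

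**Figure D3:**
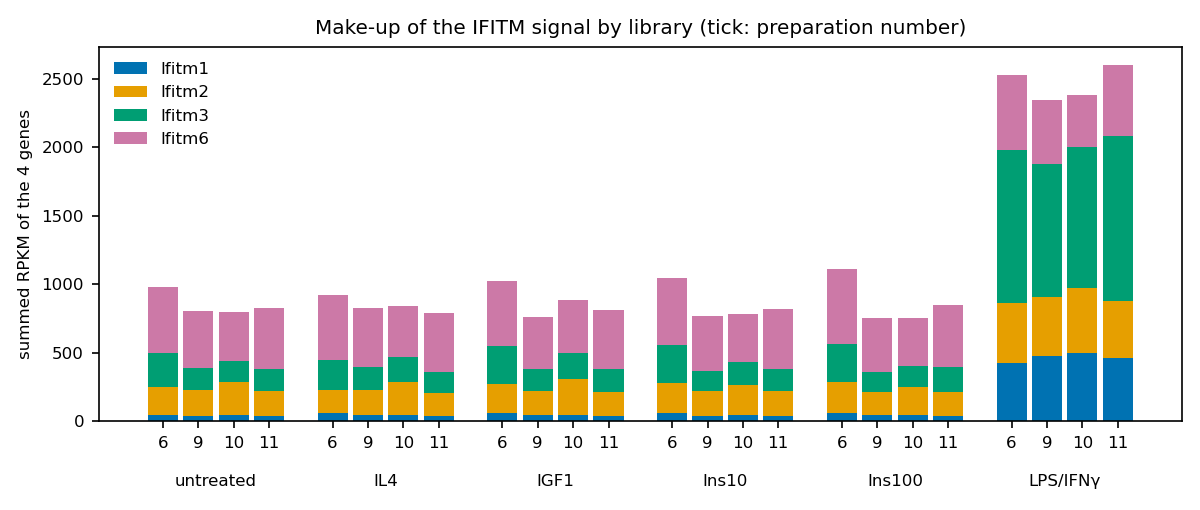
Summed RPKM of the 4 IFITM genes in each of the 24 libraries, stacked by gene and grouped by treatment, with the preparation number under each bar. The 4 libraries with LPS/IFNγ sum to 2347 to 2600 RPKM, and Ifitm3 is their largest share, where Ifitm6 is the largest in all other libraries.

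IL4 and IGF1 moved none of the 4 genes beyond the spread between libraries. IL4 is the anti-inflammatory reference of the study, and the comparison asks whether IGF1, a growth factor, gave the same state. In the IL4 comparison 1.66% of the 13097 genes tested were called, and in that of IGF1 1.63% of 13093. With preparation as a block the counts of called genes went from 218 to 345 for IL4 and from 213 to 356 for IGF1. None of the 4 IFITM genes was called by limma in either, with or without the block, nor by limma voom on recovered reads, and 0 of 4 had an unadjusted p under 0.05. The largest value was that of Ifitm1 with IGF1, which stood at 64.3, 45.1, 47.8 and 39.6 RPKM in preparations 6, 9, 10 and 11 (49.2 ± 10.6). It was above the untreated library of the same preparation in 4 of 4, by 0.43, 0.19, 0.09 and 0.10 on the log2 scale, and the groups overlapped. The log2 change was 0.20 (SE 0.15, interval -0.14 to 0.54, limma adjusted p = 0.706), and 0.20 (SE 0.07, adjusted p = 0.211) with the block. The blocked interval ran from 0.03 to 0.37 before adjustment over genes.

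Ifitm2 stood at 206, 178, 259 and 171 RPKM with IGF1 (204 ± 39.9). Its log2 change was 0.00 (interval -0.32 to 0.32), higher in 2 preparations and lower in 2. Ifitm3 stood at 276, 159, 191 and 173 RPKM with IGF1 (200 ± 52.7). Its log2 change was 0.12 (interval -0.36 to 0.60). Ifitm6 was at 419 ± 44.8 RPKM, a log2 change of -0.02 (interval -0.26 to 0.23). The intervals of Ifitm1, Ifitm2 and Ifitm6 stayed within 1.5-fold, and that of Ifitm3 reached a 1.51-fold rise without the block and a 1.22-fold rise with it. With IL4 the 4 genes stood at 46.8 ± 8.92, 192 ± 34.7, 179 ± 28.0 and 426 ± 38.8 RPKM for Ifitm1, Ifitm2, Ifitm3 and Ifitm6. The log2 changes were 0.13, -0.08, -0.01 and 0.01, with limma adjusted p between 0.809 and 0.992. IGF1 and IL4 were compared directly as well: 0% of 13080 genes were called by limma (125 at an unadjusted p under 0.05, 0 with limma voom), and the differences of the 4 genes ran from -0.02 (interval -0.25 to 0.20) for Ifitm6 to 0.13 (interval -0.27 to 0.54) for Ifitm3.

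Insulin, the hormone related to IGF1 in structure, was given at the mass concentration of IGF1 and at a higher one. At 10 ng/mL the 4 genes stood at 44.9 ± 9.06, 201 ± 23.3, 188 ± 61.5 and 422 ± 57.4 RPKM, in the same order, and at 100 ng/mL at 46.9 ± 7.65, 195 ± 26.0, 188 ± 60.6 and 437 ± 88.2 RPKM. Against untreated cells limma called 0% of 13055 genes for Ins10 and 0% of 13108 for Ins100. At an unadjusted p under 0.05 the counts were 174 and 321, with 0 of the 4 IFITM genes among them, and with limma voom both were 0. The log2 changes of the 4 genes ran from -0.01 to 0.07 for Ins10 and from -0.05 to 0.14 for Ins100. At the matched 10 ng/mL, IGF1 against Ins10 gave 0.13 (interval -0.27 to 0.53) for Ifitm1, 0.01 (-0.31 to 0.32) for Ifitm2, 0.11 (-0.45 to 0.66) for Ifitm3 and -0.01 (-0.26 to 0.24) for Ifitm6. In that comparison 1.43% of 13059 genes were called, and 1.52% of 13124 in IGF1 against Ins100. None of the 4 genes was called in either. Between the insulin doses 0% of 13112 genes were called by limma (565 at an unadjusted p under 0.05, 0 with limma voom), and the log2 differences of the 4 genes lay between -0.04 and 0.07. For Ifitm3 the interval of IGF1 against Ins10 reached 1.58-fold without the block and 1.18-fold with it (log2 -0.02 to 0.23). For Ifitm1 the blocked interval of that comparison was 0.02 to 0.24 before adjustment over genes (limma adjusted p = 0.213). The blocked interval of Ifitm1 for Ins100 against untreated was also above 0, at 0.01 to 0.28 (limma adjusted p = 0.602). None of the 4 genes was called with the block either, which does not show that the compounds act alike.

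Preparation was the larger source of variation outside LPS/IFNγ. Over the 20 libraries of the 5 other groups, preparation accounted for 82.8% of the variance of log2 RPKM of Ifitm1, 73.1% for Ifitm2, 89.3% for Ifitm3 and 87.1% for Ifitm6. The group accounted for 0.8% (Ifitm6) to 8.9% (Ifitm1). Preparation 6 had the highest Ifitm3, 220 to 279 RPKM against 140 to 191 RPKM in the other 3 preparations, with no overlap. It also had the highest Ifitm1, 47.80 to 64.3 against 35.8 to 47.75 RPKM, and the highest Ifitm6, 471 to 551 against 344 to 454 RPKM. Ifitm2 differed: preparation 10 was the highest on average, at 204 to 259 RPKM, and preparation 10 was the lowest for Ifitm6 on average, at 344 to 390 RPKM. With LPS/IFNγ, preparation 6 no longer stood out for Ifitm3 (1115 RPKM, between 971 and 1207) and was the lowest for Ifitm1 (424 RPKM). The 8 markers of immature neutrophils and promyelocytes summed to 24730 to 27630 RPKM in preparation 6 and to 20180 to 24950 RPKM in the other 3, without LPS/IFNγ. Ngp, Ltf, Chil3 and Camp made up most of this sum, with untreated means of 14740, 3933, 2597 and 2487 RPKM. Mpo and Elane stood at 28.7 and 26.2 RPKM. Chil3 had means of 5056 RPKM with IL4 and 5024 RPKM with IGF1, and these libraries are in the ranges. The erythroid markers summed to 2022 to 3184 RPKM in preparation 6 and to between 608.3 and 6125 RPKM in the others. The part of either in the IFITM values was not tested.

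The genes most like each member were sought by Pearson's r of log2 RPKM, as a description over libraries that share preparations and treatments. Over all 24 libraries the likeness of Ifitm1, Ifitm2 and Ifitm3 reflects mainly the 4 LPS/IFNγ libraries against the 20 others. Ifitm1 was closest to Tmem106a, Fcgr4, Il18bp, Trafd1 and C4b (r from 0.988 to 0.989). Ifitm3 was closest to Ifit3, Slfn5, Mgst1, Rtp4 and Ifitm1 (r from 0.981 to 0.988), and Ifitm2 to Mvp, Rnd1, Susd6, Prom1 and Tmbim6 (r from 0.966 to 0.977). Fcgr4 encodes an activating Fc receptor of myeloid cells and Il18bp a secreted inhibitor of interleukin 18. Ifitm6 had no such partner: its highest values were with Iglv2, Ighv1-54, Anxa7, Ifi27l2a and Sp140 (r from 0.737 to 0.834).

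Over the 20 libraries without LPS/IFNγ other genes came first. Ifitm6 was then closest to Ltf (r = 0.926), which encodes lactoferrin of the specific granules, followed by Ighv1-54, Dynlt1b, Ifi27 and St3gal5 (0.859 to 0.881). Ifitm3 was closest to Ifi27l2a, an interferon-induced gene (r = 0.942), followed by Dynlt1b, Igkv3-5, Ighv6-3 and Scp2 (0.916 to 0.941). Ifitm1 was closest to Prr5l, Clec12a, AI839979, Wfdc17 and Tmem159 (0.857 to 0.864), and Ifitm2 to Crat, Stfa2l1, Prss57, 1810037I17Rik and Arhgap19 (0.90 to 0.91). Among the members themselves, r was 0.802 for Ifitm1 and Ifitm3, 0.757 for Ifitm3 and Ifitm6, and -0.175 for Ifitm2 and Ifitm6. With 4 preparations behind the 20 libraries, these values rest on few independent points.

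Some genes of interferon signalling rose with LPS/IFNγ beside the IFITM genes. Of 12 interferon receptor and signal transducer genes, 6 were called higher and 0 lower (median log2 change 0.79, against -0.22 over all genes tested). Among all genes tested 8.15% were called higher and 17.8% lower. Irf1, a transcription factor induced by IFNγ, rose from 25.8 ± 1.13 to 565 ± 22.96 RPKM (log2 4.45, limma adjusted p = 1.4e-10). Stat2, a signal transducer of type I interferon, rose from 6.70 ± 0.673 to 89.6 ± 4.72 RPKM (log2 3.72) and Irf9 from 10.7 ± 0.445 to 42.2 ± 2.34 RPKM (log2 1.97). Jak2 and Socs1 were also among the genes called higher. Ifnar1, Ifnar2, Ifngr1 and Ifngr2, the receptor chains for type I interferon and for IFNγ, were below 1.5-fold, and 3 of these 4 had negative log2 changes. Ifngr1 was at -0.58 (limma adjusted p = 2.81e-05), Ifnar1 at -0.35, Ifngr2 at -0.26 and Ifnar2 at 0.35.

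Of 29 type I interferon stimulated genes, 28 passed the filter on low values and all 28 were called higher, with a median log2 change of 3.77. The exception was Ifi44, which did not pass, and Mx1 and Mx2 passed through the stimulated libraries, which forces a difference. The other 26 were above the filter in all 4 untreated libraries, and 26 of 26 were called higher, against 8.15% of all genes tested. Herc6, a ligase of the ISG15 pathway in the mouse, rose from 0.712 ± 0.0423 to 54.3 ± 7.83 RPKM (log2 6.06, limma adjusted p = 3.6e-10). Oasl1 rose by 4.10, Irf7 by 4.07 and Ifi35 by 2.86 on the log2 scale. The log2 changes of these 26 genes began at 1.86 and had a median of 3.92. Ifitm1 at 3.46 and Ifitm3 at 2.58 were below that median, and Ifitm2 at 1.13 and Ifitm6 at 0.16 were below all 26.

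With IL4 and IGF1 a few genes of interferon signalling rose, and the IFITM genes did not pass the test. In both comparisons 3 of the 12 receptor and transducer genes were called higher, and they were Socs1, Jak2 and Ifngr1. Among all genes tested 1.66% were called with IL4 and 1.63% with IGF1, in either direction. Socs1, a feedback inhibitor of JAK kinases, went from 1.60 ± 0.604 to 7.01 ± 1.83 RPKM with IL4 (log2 2.10, limma adjusted p = 0.00887) and to 7.34 ± 1.71 RPKM with IGF1 (log2 2.18, adjusted p = 0.00636). Jak2 went from 33.2 ± 3.76 to 61.5 ± 4.13 RPKM with IL4 and to 59.5 ± 4.44 RPKM with IGF1. Ifngr1, the ligand-binding chain of the IFNγ receptor, went from 38.4 ± 2.09 to 66.1 ± 7.09 and 67.3 ± 7.47 RPKM. Of the interferon stimulated genes, 26 were tested and 1 was called in each comparison, which is near the share of all genes. It was Irf7, at 17.8 ± 4.86 RPKM with IL4 and 17.5 ± 4.48 RPKM with IGF1 against 4.34 ± 0.744 RPKM untreated. With the preparation block Zbp1, which encodes a sensor of Z-form nucleic acids, was called as well, at 1.18 ± 0.323 RPKM with IL4 (log2 0.69, limma adjusted p = 0.0446) and 1.49 ± 0.486 RPKM with IGF1 (log2 0.98, adjusted p = 0.0147) against 0.724 ± 0.341 RPKM untreated. These comparisons share the untreated libraries. For Ins10 and Ins100 0 genes of either list were called by limma.

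**Figure D4:**
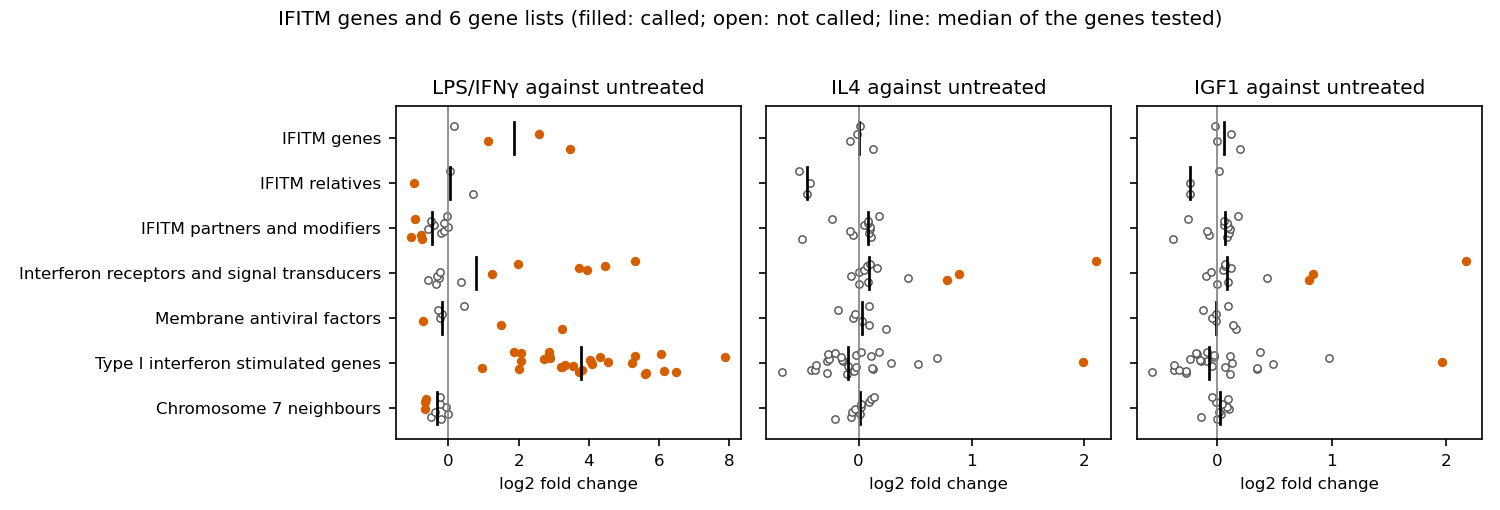
Log2 fold changes against untreated of the IFITM genes and of 6 gene lists for LPS/IFNγ, IL4 and IGF1, 1 point per gene tested, filled where the gene was called, with the median of each row as a line. With LPS/IFNγ Ifitm1 and Ifitm3 lie within the range of the type I interferon stimulated genes and Ifitm2 (1.13) lies below the 26 of them that were above the filter in untreated cells (from 1.86), and with IL4 and IGF1 the 4 IFITM genes lie between -0.08 and 0.20.

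Among 12 genes whose products act on or bind IFITM proteins, 4 were called lower and 0 higher with LPS/IFNγ (median -0.46). Over all genes tested 17.8% were called lower and the median was -0.22, and after median-of-ratios scaling 2 of the 12 were still called lower. Nedd4, the ubiquitin ligase that acts on IFITM3, went from 27.0 ± 1.84 to 12.8 ± 0.773 RPKM and fell by 1.06 on the log2 scale (limma adjusted p = 1.84e-06). Zdhhc20, a palmitoyltransferase known from human cells to act on IFITM3, went from 21.8 ± 1.503 to 12.9 ± 1.18 RPKM (log2 -0.75, adjusted p = 4.1e-05). Setd7, a lysine methyltransferase that acts on IFITM3, went from 23.01 ± 1.34 to 13.3 ± 1.37 RPKM (log2 -0.79). Cd81, a tetraspanin that associates with IFITM1 in lymphocytes, went from 4.68 ± 0.649 to 2.37 ± 0.524 RPKM (log2 -0.96). With IL4 and IGF1 0 of the 12 were called, where 1.66% and 1.63% of all genes tested were.

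Other membrane proteins that restrict viruses did not move as 1 group. Of 8 such genes 7 were tested with LPS/IFNγ, 2 were called higher and 1 lower (median -0.19). Among all genes tested 8.15% were called higher and 17.8% lower, with a median of -0.22. The 1 of 7 called lower and the median are near those of all genes. Bst2, the tetherin gene, rose from 1.68 ± 0.475 to 16.5 ± 2.35 RPKM (log2 3.25, limma adjusted p = 9.43e-07) and Ly6e, which encodes a lipid-anchored surface protein, from 39.4 ± 8.20 to 110 ± 8.98 RPKM (log2 1.49). March8, a membrane ubiquitin ligase, went from 5.34 ± 0.820 to 3.18 ± 0.457 RPKM (log2 -0.73). After scaling 3 were called higher and 0 lower.

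Of 10 relatives of the family with the same membrane domain, 3 passed the filter on low values with LPS/IFNγ, and 1 was called. It was Ifitm10, which went from 0.417 ± 0.0595 to 0.170 ± 0.0833 RPKM (log2 -0.98, limma adjusted p = 0.00716). The second mean is near the filter of 0.1 RPKM. As 25.9% of all genes tested were called and 17.8% were called lower, 1 of 3 is near the share of all genes. Ifitm5, the neighbour of Ifitm2 known from bone-forming cells, stood at 0.401 ± 0.183 and 0.698 ± 0.275 RPKM (log2 0.69, adjusted p = 0.121), and was called higher with the preparation block (adjusted p = 0.00556). Both lay far below the 4 genes described here.

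Among listed genes beside the IFITM genes on chromosome 7, none of those tested was called higher with LPS/IFNγ. Of 14 listed neighbours 10 were tested, 0 were called higher and 3 lower with LPS/IFNγ (median -0.31, range -0.66 to -0.01). Over all genes tested 8.15% were called higher and 17.8% lower, with a median of -0.22, so 0 of 10 higher is near the share of all genes. Of the 10 tested, Athl1 was the closest on 1 side, at -41.9 kb from the middle of the cluster. It was at a log2 change of -0.07 (limma adjusted p = 0.602). Ifitm5 (chr7:140948958-140950291), counted above with the relatives, lies nearer on that side and was not on this list. Its log2 change was 0.69 (limma adjusted p = 0.121, and 0.00556 with the preparation block, where it was called higher). On the other side Pkp3, at 98.0 kb, was at -0.21 (adjusted p = 0.558). The 3 called were Ric8a, Hras and Bet1l, between -0.66 and -0.65. After median-of-ratios scaling 0 of the 10 were called in either direction.

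**Figure D5:**
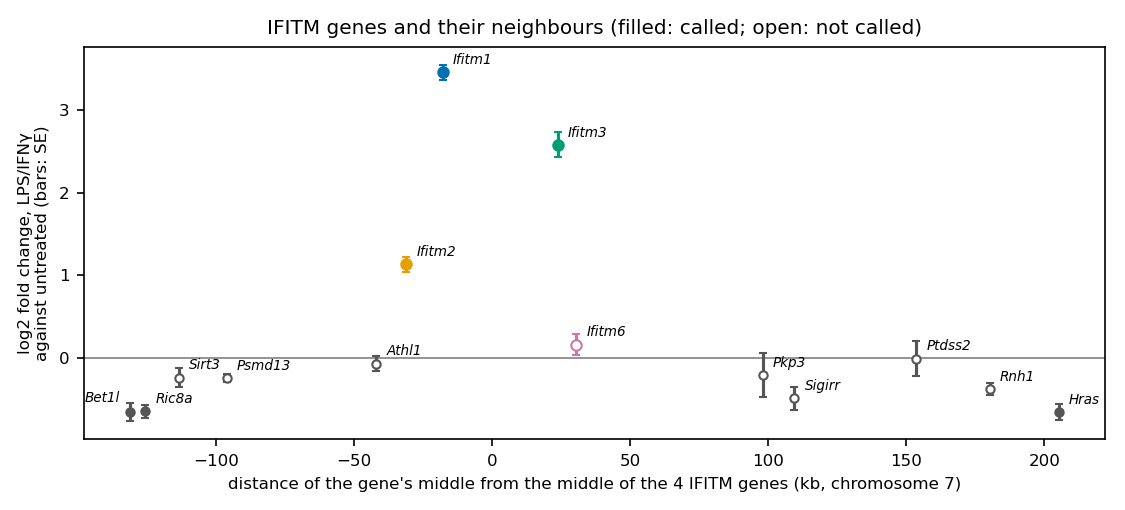
Log2 fold change of LPS/IFNγ against untreated (bars: SE) of the 4 IFITM genes and of 10 neighbouring genes by distance from the middle of the 4 genes in kb, filled where called. Ifitm1, Ifitm3 and Ifitm2 stand at 1.13 to 3.46, and the 10 neighbours lie between -0.66 and -0.01. Ifitm5 is not shown.

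The genes are paralogs, so shared sequence bears on how reads were divided among them. The coding sequences of Ifitm1, Ifitm2 and Ifitm3 were 80.9% to 82.1% identical in pairs, and each was 66.3% to 70.4% identical to that of Ifitm6. The longest exact stretch common to any pair of transcripts was 69 bases, in Ifitm2 and Ifitm3, and it is shown because a trimmed read inside it fits both genes.
Ifitm2, chr7:140955718-140955786, and Ifitm3, chr7:141010445-141010513, minus strand: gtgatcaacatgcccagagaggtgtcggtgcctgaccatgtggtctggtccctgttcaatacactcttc
Ifitm1 and Ifitm3 shared at most 64 bases, Ifitm1 and Ifitm2 40, and Ifitm6 at most 25 with any other. No stretch of 150 bases, the length of the reads before trimming, was common to any pair. The handling of reads with several hits is not stated, so the division of reads between Ifitm2 and Ifitm3 is uncertain to that extent. A readthrough transcript that GENCODE places over Ifitm2 on the same strand was not analysed here.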

How the data were processed

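Stranded messenger RNA libraries of 24 neutrophil cultures were sequenced as single reads of 150 bases. Base calls were made with bcl2fastq 2.17.1.4 per the submitters' notes. With CLC Genomics Workbench the authors trimmed reads, mapped them to GRCm38 and deposited 1 table of RPKM per library, with no scaling between libraries. Whether counting used the strand is not stated in the sources read.

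Values were taken as log2(RPKM + 0.1), so fold changes of low genes are understated. Each of 10 comparisons was fitted with limma 3.58.1 in R 4.3.3 (trend and robust settings, with statmod 1.5.0) over its 8 libraries, for genes that reached 0.1 RPKM in 4 or more of them. Called genes had an adjusted p (Benjamini-Hochberg, over all genes tested) under 0.05 and changed at least 1.5-fold. Ratios of 2 genes within a library were compared by exact permutation tests. Whole reads were recovered from the RPKM of 14866 genes (73.2% of 20297 above 0 with a length, tolerance 0.01 reads) for limma voom. The fit was tested on simulated data.

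Libraries with the same preparation number were checked for likeness after removal of group means. The 60 pairs with the same number had correlations of 0.182 to 0.683, and the 180 others reached 0.141 at most, so the numbers pair the samples. Where nothing ties libraries to separate mice, p-values measure the spread between these libraries, which may be technical.

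Named genes were the 4 members, up to 4 called genes per list by smallest adjusted p, members that fill a count of 5 or fewer, and 5 genes per member by Pearson's r. Members and lists were chosen with earlier results of these data known. The values of 1 gene that the rule names are not reported here. Ifnar1, Ifnar2, Ifngr2, Zbp1, Ifitm5, Athl1, Pkp3, Mx1, Mx2 and Ifi44 were named beyond this rule, after their values were seen. Alternatives were pseudocounts of 1 and 0.01, no filter or 1 RPKM, limma without trend, scaling by the median of ratios, preparation as a block, 1 fit over all 24 libraries, no fold threshold or 2-fold, limma voom, and each library left out. Leaving out preparation 6 or 10 and voom with the block were added after seeing the data. Sequences were compared with Biopython 1.88.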

Additional observations from a re-analysis of the deposited data

Results flagged for a closer look

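In groups of 4 libraries, 3 values stood apart from the other libraries of their group by Dixon's ratio of gap to range (0.842 to 0.884, past its 95% critical value), and all 3 were libraries of preparation 6. Ifitm3 in the untreated library of that preparation was 250.3 RPKM, against 153.7 to 164.9 RPKM in the other 3. With Ins10 it was 279.1 RPKM, against 145.4 to 164.0 RPKM. Ifitm1 with Ins100 was 58.29 RPKM, against 41.59 to 44.23 RPKM. Chance alone puts about 1 in 20 groups past this value, and 30 groups (the 4 genes and their sum in 6 groups) were examined. The cause was not tested.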

How the results depend on the processing

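The number of IFITM genes called was the same as reported under all 220 alternatives of the 10 comparisons, and the number of ratios that passed was the same under all 27 alternatives. The ratios with LPS/IFNγ did not overlap untreated ones, and leaving out a library cannot undo that, so it is a weak check there. Against untreated cells, the log2 change with LPS/IFNγ ran over the alternatives from 3.4 to 3.71 for Ifitm1, from 2.51 to 2.83 for Ifitm3, from 1.08 to 1.38 for Ifitm2 and from 0.08 to 0.41 for Ifitm6. Their limma adjusted p ran up to 7.26e-07, 0.000149, 0.000255 and 0.646. For Ifitm6, 3 of 22 alternatives took the limma adjusted p below the threshold, but not the fold. Scaling gave a log2 change of 0.41 (limma adjusted p = 0.0365), the block 0.16 (0.00909) and voom with the block 0.16 (0.00403). Ifitm1 with IGF1 ran from 0.06 to 0.30 (adjusted p from 0.103 to 0.885). In the 8 comparisons without LPS/IFNγ, 71 values that were not called changed sign, 58 of them when 1 library was left out, all between -0.19 and 0.15. The replicate block changed no call of an IFITM gene.

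Counts over all genes, which give the background, did move. For LPS/IFNγ against untreated the 3387 genes called became 1538 at 2-fold and 6407 with no fold threshold. Scaling turned 1065 higher and 2322 lower (31.4% higher) into 1527 and 1243 (55.1% higher). For IL4 the count of 218 ran from 118 without IL4 replicate 4 (preparation 9) to 345 with the block, and for IGF1 the count of 213 ran from 101 without preparation 6 to 356 with the block (138 and 134 with voom). IGF1 against Ins10 (187) ran from 90 to 328, IGF1 against Ins100 (200) from 104 to 319 and LPS/IFNγ against IL4 (3555) from 1646 to 5877. Between the insulin doses 86 genes were called when Ins10 replicate 2 (preparation 11) was left out, against 0 with all libraries. Ins100 against untreated went from 0 to at most 8, with voom and the block. IGF1 against IL4 went from 0 to at most 1, with the block. The causes were not tested. Counting error was at most 3.67% of a value. The intervals of Ifitm3 reached 1.5-fold in 4 of the 8 comparisons without LPS/IFNγ, and in 0 of them with the block.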
